A study of Mus musculus with 40 samples.

Results

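The loci described here are 6403 transcript loci without a gene annotation that were silent in control mouse oocytes, out of 38540 loci in the deposited RNA table. They were taken by rule. A locus had to lie on an autosome, carry no annotated feature, sit below 1 on the log2 scale, which is a level of 2 RPM (reads scaled to a library total of 1000000), in each of the 6 control RNA libraries, and hold at least 1 read in at least 1 of the 11 RNA libraries. The loci were thus chosen by their RNA values, so low control levels and any excess of the mutants over the controls are descriptions of what was chosen and carry no test. Of 14156 unannotated autosomal loci, 5101 had no read in any library, and 6403 of the other 9055 met the rule. The rule took reads of any library as sign of a transcript, and 1532 loci entered through reads in mutants alone, so their mutant values are descriptions too. Of the 11504 loci silent in the controls the read requirement left out only loci at 0 in every library, which add nothing to a sum. The contrast between the 2 mutants is given for all loci and for the 4871 with a read in a control. The H3K9me2 levels did not enter the rule.

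G9A, encoded by Ehmt2, and its partner GLP, encoded by Ehmt1, form the enzyme complex that places mono- and dimethylation on lysine 9 of histone H3. The dimethyl mark, H3K9me2, covers broad domains of silent chromatin. Growing oocytes transcribe many units that lie outside annotated genes, often from promoters within long terminal repeats, which is why an oocyte transcript assembly holds many loci without a gene name.

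The series compared germinal-vesicle oocytes, the fully grown oocytes before meiotic maturation, of control mice, of mice labelled G9a cKO (conditional deletion of G9a) and of mice labelled G9a-Glp cDKO (conditional deletion of both, here cDKO). Each of the 40 samples pooled 100 to 200 hand-dissected oocytes from mice aged 22 to 25 days. RNA was measured in 3 controls and 3 G9a cKO libraries with the title prefix GKAO, and in 3 controls and 2 cDKO libraries with the prefix GKAQ, and H3K9me2 in 2 libraries of each genotype. Bisulphite, input and IgG libraries were not used here. The labels name no Cre driver, strain or other allele, and do not say whether libraries came from separate animals, so p-values measure the spread between these libraries. Prefix and mutant genotype cannot be told apart when G9a cKO and cDKO are compared with each other, and in pooled bulk RNA fewer cells that transcribe a locus and less RNA per cell cannot be told apart either.

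RNA libraries were scaled to between 1458868 and 2399680 reads, so that 1 read was worth 0.417 to 0.685 RPM. A control below 2 RPM therefore had at most 2 to 4 reads at a locus, and a mutant library at or above 2 RPM had at least 4 or 5. The H3K9me2 libraries were uneven, with 7048784 and 19128881 reads in controls against 1109191 to 1881848 in the mutants. All 12 oocyte markers exceeded 10 RPM in every group, with summed levels of 16078 to 18987 RPM per library. The 12 granulosa cell markers summed to 134 to 210 RPM, and the 2 of 6 blood markers present in the table to 0 to 4.10 RPM. Of the granulosa markers, limma called 2 higher and 0 lower in cDKO against GKAQ controls (over all loci, 4.32% and 2.02%). These were Inha (2.14 RPM in GKAQ controls, 8.46 RPM in cDKO, limma adjusted p = 0.00472) and Fshr (1.86 and 7.22 RPM, limma adjusted p = 0.0300). The median log2 fold change over the 12 was 0.02. Their sum was 146 to 180 RPM in GKAQ controls and 134 to 161 RPM in cDKO. The part of such cells in the cDKO results was not tested. Ehmt2 had 12, 13 and 9 reads in GKAO controls against 5, 11 and 2 in G9a cKO, and 8, 30 and 16 reads in GKAQ controls against 5 and 5 in cDKO. For the deleted gene, the library labelled G9a cKO replicate 2 was inside the range of its controls, and the main counts for G9a cKO RNA are given with and without it. Ehmt1 had 144, 164 and 173 reads in GKAQ controls and 31 and 36 in cDKO.

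Few of the silent loci coincide with the start of a RefSeq gene. A RefSeq start on the same strand lay within 300 bases of the start of 90 loci, of which 6 belonged to the 186 loci released in a mutant, where released means that every library of that mutant was at or above 2 RPM. The promoters of 4 of these 6 are shown because they cover the 3 patterns of release, from 250 bases before to 50 bases after the RefSeq start (RefSeq, GRCm38.p6, 5′ to 3′ on the strand of the gene). Capitals mark TATAAA or CCAAT on either strand, where TTTATA and ATTGG are their reverse complements, and the motifs share no bases here. Gm20599 (chr13:61656551-61656850, plus strand) stands 247 bases upstream of TCONS_00027422, released in both mutants. Gm34267 (chr10:22058605-22058904, minus strand) stands 14 bases from the start of TCONS_00011536, released in G9a cKO alone. 2810429I04Rik (chr13:3477982-3478281, plus strand) and Gm33302 (chr9:97275489-97275788, plus strand) stand 6 and 194 bases from TCONS_00025915 and TCONS_00104017, both released in cDKO alone.
Gm20599: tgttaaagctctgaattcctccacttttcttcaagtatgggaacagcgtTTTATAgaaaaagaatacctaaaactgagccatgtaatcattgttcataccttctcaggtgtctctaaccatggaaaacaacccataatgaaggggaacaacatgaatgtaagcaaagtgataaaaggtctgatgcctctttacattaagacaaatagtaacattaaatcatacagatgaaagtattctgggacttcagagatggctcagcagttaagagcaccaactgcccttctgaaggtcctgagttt
Gm34267: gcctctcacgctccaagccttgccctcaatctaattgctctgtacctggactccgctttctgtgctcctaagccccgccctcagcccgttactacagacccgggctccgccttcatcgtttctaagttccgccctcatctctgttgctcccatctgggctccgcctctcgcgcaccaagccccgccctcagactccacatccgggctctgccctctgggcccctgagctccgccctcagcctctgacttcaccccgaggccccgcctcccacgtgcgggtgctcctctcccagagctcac
2810429I04Rik: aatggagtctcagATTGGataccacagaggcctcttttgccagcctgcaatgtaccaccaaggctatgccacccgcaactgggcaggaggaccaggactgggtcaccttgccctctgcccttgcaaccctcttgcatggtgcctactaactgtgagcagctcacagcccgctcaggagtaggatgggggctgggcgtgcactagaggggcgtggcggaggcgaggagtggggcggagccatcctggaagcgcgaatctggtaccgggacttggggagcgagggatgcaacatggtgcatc
Gm33302: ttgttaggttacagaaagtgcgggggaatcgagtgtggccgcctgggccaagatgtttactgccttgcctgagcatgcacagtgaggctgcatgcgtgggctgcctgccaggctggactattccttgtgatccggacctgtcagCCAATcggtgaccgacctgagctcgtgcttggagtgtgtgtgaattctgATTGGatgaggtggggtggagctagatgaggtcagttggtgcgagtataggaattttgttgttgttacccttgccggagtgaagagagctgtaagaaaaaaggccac

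TATAAA occurred in 13.6% and CCAAT in 37.4% of 32851 RefSeq promoters of the same length, and the median promoter held 7 CG dinucleotides. Gm20599 held 1 CG dinucleotide, 2810429I04Rik 11, Gm33302 10 and Gm34267 18, so loci of both CG-poor and CG-rich starts were among those released. A match describes these letters only and marks no bound site. TCONS_00011536, beside Gm34267, had 7, 4 and 7 reads in G9a cKO and 2 and 0 in cDKO. TCONS_00104017, beside Gm33302, had 2, 0 and 1 reads in G9a cKO and 4 and 5 in cDKO. In both cases the 2 mutants did not overlap, which their choice by release in 1 mutant alone favours. Over all loci every cDKO library was above every G9a cKO library at 15.1%, and the reverse held at 7.31%. Neither difference passed the limma test between mutants (adjusted p = 0.20 and 0.09).

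Most of the silent loci were covered by very few reads. Of the 6403, 5065 had fewer than 10 reads over all 11 libraries and 1178 had none in any mutant library, while 1532 had reads in mutants only. The threshold was a matter of single reads. The 3 loci listed first among those just inside, TCONS_00000324, TCONS_00001906 and TCONS_00002856, peaked at 0.98 on the log2 scale in a control, and the 3 listed first just outside, TCONS_00004607, TCONS_00004614 and TCONS_00000632, at 1.04. At the other end, 904 unannotated autosomal loci were at or above 2 RPM in every control, and of these 4 fell below it in every G9a cKO library and 17 in both cDKO libraries.

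Summed over all 6403 loci, the GKAO controls held 1258, 1265 and 1309 RPM and the G9a cKO libraries 2048, 2124 and 2061 RPM. The GKAQ controls held 1466, 1539 and 1651 RPM and the cDKO libraries 3187 and 3333 RPM. The mutant libraries were above all controls, which the rule favours, and the cDKO libraries were above all G9a cKO libraries. The mean of cDKO was 1.57 times that of G9a cKO (two-sided exact permutation test, p = 0.2, the smallest that 2 against 3 libraries allow). Over the 4871 loci with a read in a control, a set added after the data were seen, the ratio was 1.55. The GKAQ controls also lay above the GKAO controls, and the part of prefix in the ratio was not tested. The excess was not carried by the released loci alone. Over the 6217 loci released in neither mutant, G9a cKO libraries held 1739, 1798 and 1737 RPM and cDKO libraries 2373 and 2504, a ratio of 1.39 (exact p = 0.2). The 5760 annotated autosomal loci silent by the same rule held 2252, 2348 and 2216 RPM in G9a cKO and 3578 and 3515 RPM in cDKO. An excess in cDKO was thus not particular to unannotated loci.

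**Figure D1:**
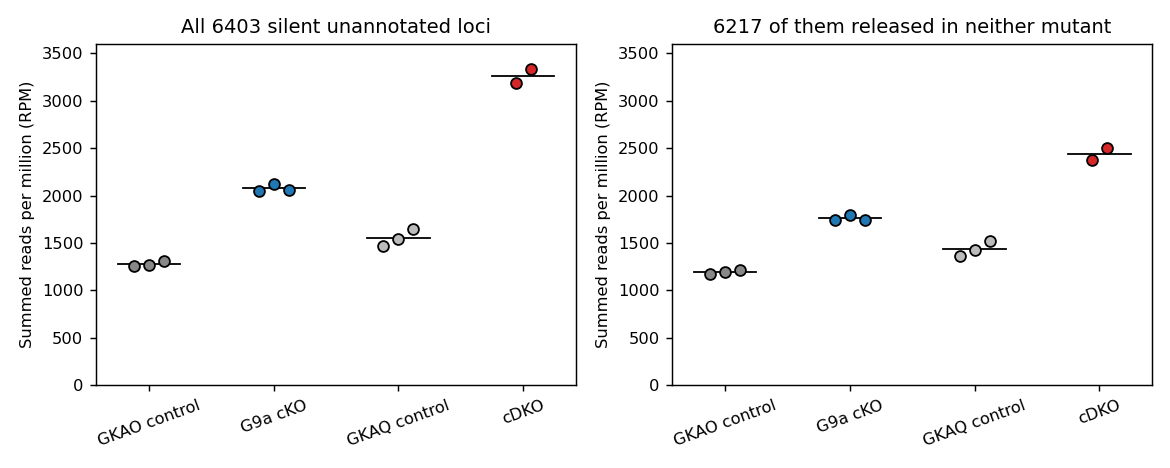
Summed RNA level (RPM, linear axis from 0) per library of all 6403 silent unannotated loci (left) and of the 6217 released in neither mutant (right). Points are libraries and lines are group means, and in both panels the cDKO libraries lie above the G9a cKO libraries, at 3187 and 3333 against 2048 to 2124 RPM for all loci.

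The spread of reads over loci differed in the same direction. Between 2150 and 2447 of the loci had a read in a G9a cKO library and 2523 and 2595 in the cDKO libraries, although both cDKO libraries were shallower than all 3 G9a cKO libraries. After thinning every library to 1458868 reads, 1416 to 1467 loci had a read in GKAO controls, 1730 to 1872 in G9a cKO, 1586 to 1740 in GKAQ controls and 2272 and 2403 in cDKO. At equal depth the G9a cKO libraries overlapped the GKAQ controls, and both cDKO libraries stood above all others.

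By the 2 RPM threshold, 34 loci (0.531%) were released in G9a cKO and 173 (2.70%) in cDKO. These counts follow from the rule and are given as they stand. Among the 5760 annotated autosomal loci that were silent in the same way, the corresponding shares were 0.556% in G9a cKO and 3.06% in cDKO, so unannotated silent loci crossed the threshold about as often as annotated ones. Release in both mutants was recorded for 21 loci, which is 61.8% of those released in G9a cKO and 12.1% of those released in cDKO. The criterion is harder to meet with 3 libraries than with 2. With any 2 of the G9a cKO libraries, 50 to 62 loci were released (58 without replicate 2), and with 1 cDKO library 352 or 363. Without G9a cKO replicate 1, 2 or 3, 26, 31 or 29 loci were released in both mutants and 24, 27 or 33 in G9a cKO alone. With at least 10 reads in every library of the mutant, 4 loci were released in G9a cKO and 24 in cDKO.

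Loci released in cDKO alone also summed to more in G9a cKO than in GKAO controls, which the rule favours. These 152 loci summed to 58.1 to 77.4 RPM in GKAO controls and to 167 to 203 RPM in G9a cKO, and to 81.7 to 101 RPM in GKAQ controls and 624 and 639 RPM in cDKO. The 13 loci released in G9a cKO alone summed to 8.75 to 9.37 RPM in GKAQ controls and 19.9 and 21.9 RPM in cDKO. In G9a cKO they summed to 35.0 to 48.0 RPM. In each case the other mutant lay above its controls without overlap, in sums over loci that had been chosen as low in those controls. Over the 6217 loci released in neither mutant, G9a cKO also lay above its controls, at 1737 to 1798 against 1167 to 1214 RPM. There cDKO had 2373 and 2504 RPM against 1363 to 1518 RPM in GKAQ controls.

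**Figure D2:**
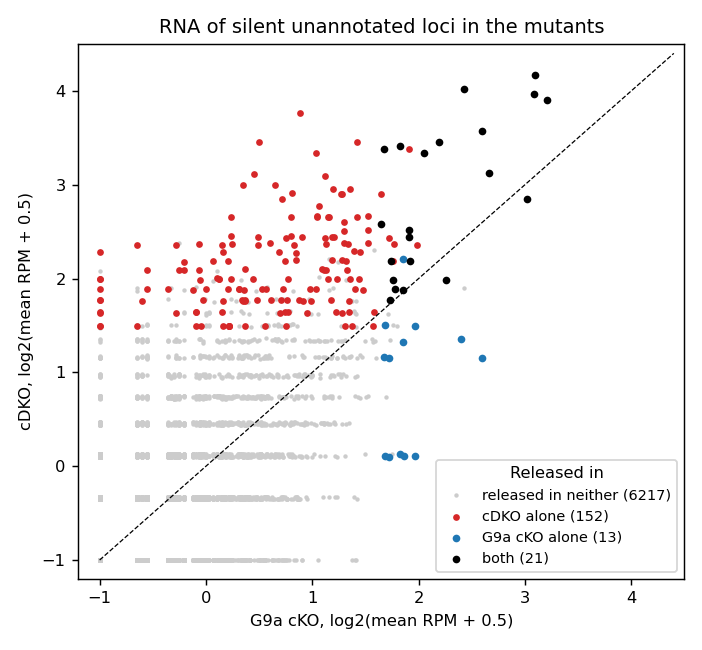
Mean RNA level of each silent unannotated locus in G9a cKO (x axis) and cDKO (y axis), both as log2(mean RPM + 0.5), coloured by release. The dashed line marks equal levels, and 19 of the 21 loci released in both mutants (black) have the higher mean level in cDKO.

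Levels of single loci are given next. Over all 38540 loci, every cDKO library exceeded every control at 9.19% and every G9a cKO library did so at 3.41%, and these loci were chosen as low in controls. The 4 with the highest mean level in cDKO were also among the 10 highest in G9a cKO, with reads in all 5 mutant libraries. TCONS_00018417 (chr11:40494109-40586926, minus strand, 91.7 kb from Mat2b, the regulatory subunit gene of methionine adenosyltransferase) had 2, 0 and 0 reads in GKAO controls, 25, 14 and 13 in G9a cKO, 2, 3 and 4 in GKAQ controls, and 30 and 30 in cDKO. Every mutant library exceeded every control, and the level in G9a cKO was at least 3.92-fold that of its controls. Mat2b itself, with 951 to 1550 reads per control, was not called in either mutant (limma adjusted p = 0.565 in cDKO and 0.421 in G9a cKO).

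TCONS_00024709 (chr12:56091649-56098043, minus strand, 222 kb from the nearest annotated gene, Brms1l) had 2, 2 and 1 reads in GKAO controls and 17, 17 and 16 in G9a cKO, and 0, 0 and 2 in GKAQ controls and 28 and 24 in cDKO. The groups did not overlap, and the rise over controls was at least 3.88-fold in G9a cKO and at least 8.00-fold in cDKO. TCONS_00067389 (chr3:66443511-66470923, minus strand) had 13, 9 and 9 reads in G9a cKO and 22 and 32 in cDKO, with 0 to 3 in every control. TCONS_00068845 (chr3:140686957-140760553, minus strand) had 20, 12 and 24 reads in G9a cKO and 31 and 19 in cDKO, with 0 to 2 in every control. Of these 4 loci it alone had overlapping mutants, and another locus lies on its opposite strand, so its reads may have been counted for both. Its nearest annotated gene, Pdha2, a pyruvate dehydrogenase subunit gene of the germ line, lies 449 kb away and was called higher in G9a cKO (log2 fold change 2.42, limma adjusted p = 0.00497) and in cDKO (2.15, limma adjusted p = 0.0230). Pdha2 had 1, 2 and 3 reads in GKAO controls, 15, 12 and 10 in G9a cKO, 1, 10 and 7 in GKAQ controls, and 11 and 23 in cDKO.

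TCONS_00027422 (chr13:61657048-61659471, plus strand) lies over Gm20599, a RefSeq gene model that the authors' table does not attach to it. Its reads were 1, 1 and 0 in GKAO controls, 13, 5 and 18 in G9a cKO, 1, 2 and 3 in GKAQ controls, and 17 and 22 in cDKO. All mutant libraries were above all controls, with a rise of at least 2.70-fold in G9a cKO and at least 6.03-fold in cDKO. The nearest annotated gene, Cts3, a placental cathepsin gene 86.9 kb away, had 15 and 19 reads in cDKO against 0, 4 and 6 in GKAQ controls and was called higher (log2 fold change 2.80, limma adjusted p = 0.00104). In G9a cKO Cts3 was not called (0.66, adjusted p = 0.432). TCONS_00041800 and TCONS_00043595 on chromosome 16 overlap on opposite strands within Gm30445 and had 19 and 17 against 19 and 16 reads in cDKO, and 10, 7 and 9 against 6, 7 and 6 in G9a cKO. Whether both count the same fragments was not tested.

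A smaller number of loci had their highest levels in G9a cKO. TCONS_00070523 (chr4:82261222-82266972, plus strand, 23.2 kb from Nfib, a transcription factor gene) had 22, 5 and 10 reads in G9a cKO and 4 and 2 in cDKO, against 0 to 4 in controls. TCONS_00002391 had 13, 5 and 13 reads in G9a cKO and 2 and 5 in cDKO. TCONS_00088308 had 13, 13 and 22 reads in G9a cKO and 10 and 13 in cDKO. Scaled to depth, both cDKO libraries lay below all G9a cKO libraries at TCONS_00070523, and the mutants overlapped at the other two. No difference between the mutants passed the limma test for any of the 3 (adjusted p from 0.320 to 0.897).

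**Figure D3:**
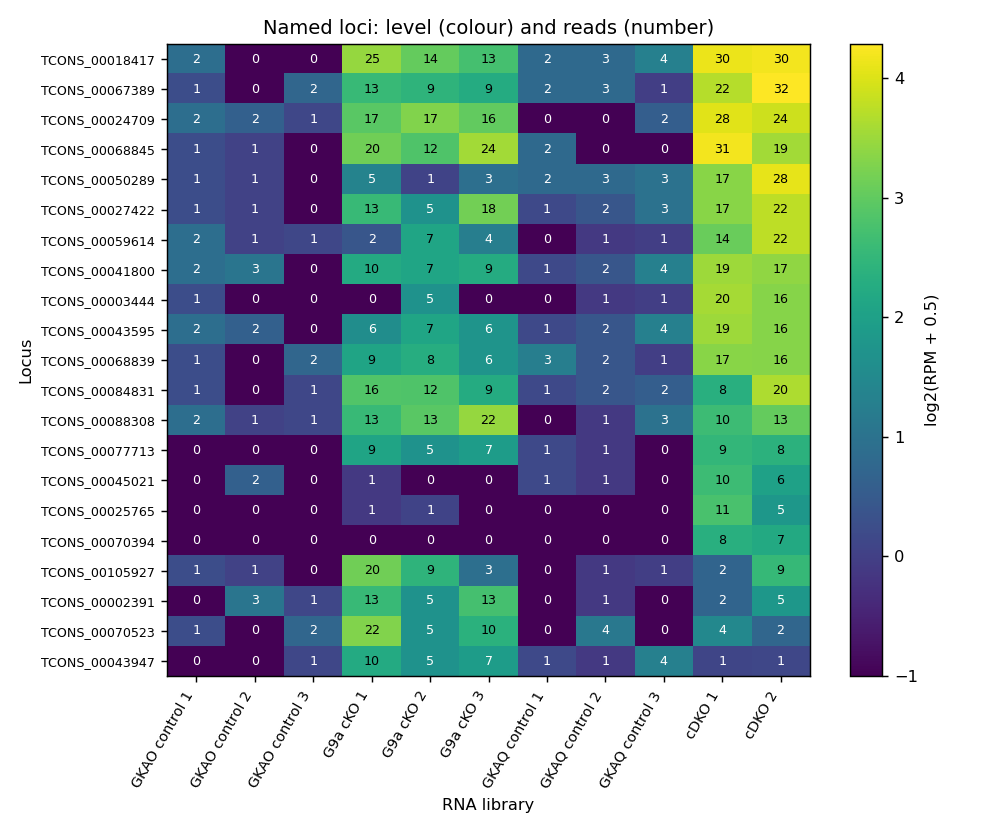
Reads (numbers) and level (colour, log2(RPM + 0.5)) of the named silent loci in each RNA library, with loci as horizontal lines of cells and libraries as columns. Control columns hold at most 4 reads per locus, and the 2 right-hand columns (cDKO) hold up to 32.

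The direct contrast of cDKO with G9a cKO was tested with limma over all 38540 loci. Of all loci, 5.75% were called at an adjusted p under 0.05, 3.88% higher and 1.87% lower in cDKO. Of the 6403 silent unannotated loci, 167 (166 higher, 1 lower) were called, a share below that of all loci, though with a different balance of direction. The scale carries an offset: a locus without any read takes a value of 0.9 read, which is 0.29 higher on the log2 scale in cDKO than in G9a cKO because of depth. The median difference over the 6403 loci was that same 0.29, and it was 2.05 over the 166 loci called higher.

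Many of these calls rest on few reads. Of the 166, 71 had no read in any G9a cKO library, 158 had at most 3 in each, and 54 had at most 3 in every mutant library. Without the latter, in a count added after the data were seen, 113 calls remained. Of the 4871 loci with a read in a control, 112 were called (111 higher), and the other 55 calls were of loci taken in through mutant reads alone. Of the 173 loci released in cDKO, 47 were called higher, and of the 21 released in both mutants 0 were by limma (3 at an unadjusted p under 0.05), although 19 of them had the higher mean level in cDKO. Fitted to these 5 libraries alone, the test called 37 loci (36 higher), and with log2(RPM + 0.5) it called 102 (92 higher, 10 lower). Without G9a cKO replicate 1, 2 or 3, 69, 100 or 64 loci were called, and without cDKO replicate 1, 268. Counted without a model, every cDKO library exceeded every G9a cKO library at 766 of the 6403 loci, a share below the 15.1% of all loci. The reverse held at 56, also a share below that of all loci, 7.31%.

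The loci with the greatest called differences were close to empty outside cDKO. TCONS_00003444 (chr1:173013535-173014476, plus strand) had 0, 5 and 0 reads in G9a cKO and 20 and 16 in cDKO, with 0 or 1 in each control. Only G9a cKO replicate 2 held reads in that group, and the groups did not overlap. The difference was 3.78 on the log2 scale (SE 0.79, limma adjusted p = 0.000165), and it was lost with log2(RPM + 0.5) (adjusted p = 0.0984).

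TCONS_00050289 lies 2.12 kb from Csnk1g3, a casein kinase gene, and overlaps another locus on the opposite strand. It had 5, 1 and 3 reads in G9a cKO and 17 and 28 in cDKO, with 0 to 3 in controls. The mean level was 9.74 times higher in cDKO, with a difference of 3.43 (SE 0.79, limma adjusted p = 0.000912). The call was lost without cDKO replicate 2 (adjusted p = 0.0763). Csnk1g3 was not called in cDKO against its controls (-0.12, adjusted p = 0.682), with 110 and 116 reads against 106 to 187.

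TCONS_00070394 (chr4:63875873-63877589, plus strand) had 0 reads in all 9 libraries other than cDKO, and 8 and 7 there. It was taken in by these reads alone, so its level in cDKO, at least 2.66-fold that of G9a cKO, is a description. The RefSeq coding gene nearest to TCONS_00070394 is Tnfsf8, 14.4 kb away. Among annotated loci of the RNA data the nearest was that of Tnc, which encodes the matrix protein tenascin C, 82.2 kb away. Tnc was called higher in cDKO against its controls (1.69, limma adjusted p = 0.00122), with 39 and 38 reads against 6, 27 and 16. TCONS_00025765 on chromosome 12, also without a read in any control, had 1, 1 and 0 reads in G9a cKO and 11 and 5 in cDKO. TCONS_00045021 on chromosome 17 had 10 and 6 reads in cDKO against 1, 0 and 0 in G9a cKO, and no control had over 2. TCONS_00070394, TCONS_00025765 and TCONS_00045021 were called higher in cDKO than in G9a cKO (limma adjusted p = 5.61e-05, 0.000158 and 0.000294). TCONS_00070394 and TCONS_00025765 entered through mutant reads alone, so their calls are descriptions. The call of TCONS_00045021 was lost with log2(RPM + 0.5) (adjusted p = 0.0603).

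The 1 locus called lower in cDKO was TCONS_00043947 (chr16:70952573-71003245, minus strand, within the RefSeq lncRNA Gm29823). It had 0, 0 and 1 reads in GKAO controls, 10, 5 and 7 in G9a cKO, 1, 1 and 4 in GKAQ controls, and 1 and 1 in cDKO. G9a cKO stood above all other libraries. The difference was -2.53 (SE 0.80, limma adjusted p = 0.0319), and the call was lost in 6 of 17 alternatives, including without G9a cKO replicate 1 or 3 and without either cDKO library, where the difference was -2.37, -2.54, -2.50 and -2.56.

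As descriptions of what the rule chose, limma called 194 of the silent loci higher and 0 lower in cDKO against GKAQ controls (766 and 7 at an unadjusted p under 0.05), where 6.34% of all loci were called, 4.32% higher and 2.02% lower. Without GKAQ control replicate 2 or 3, 85 or 102 were called. In G9a cKO against GKAO controls, 20 were called higher and 0 lower (119 and 268 unadjusted), where 1.79% of all loci were called, 1.05% higher and 0.737% lower. Because of depth, an empty locus sat 0.20 higher in cDKO than in GKAQ controls on this scale. It sat 0.32 lower in G9a cKO than in GKAO controls. Without any 1 of the 6 GKAO libraries, 7 to 11 were called in G9a cKO (9 without G9a cKO replicate 2).

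Released loci were longer at the median. The median length was 2292 bases over all 6403 loci, 5739 over those released in cDKO and 7302.5 over those released in G9a cKO. In 4 groups of nearly equal size from the shortest to the longest, 0.437%, 2.00%, 3.25% and 5.12% were released in cDKO, which is 7, 32, 52 and 82 loci, and 1, 2, 11 and 20 were released in G9a cKO. Levels here are per library and not per length, so a longer locus collects more reads at equal transcription per base. Per length the order of the named loci differed: in cDKO, TCONS_00077713, 445 bases long, was at 11.1 RPM per kb and TCONS_00018417, 92818 bases long, at 0.19.

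**Figure D4:**
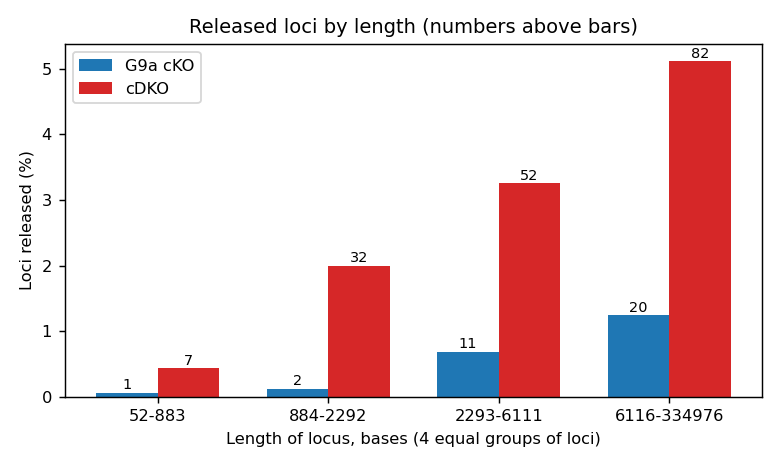
Share of silent unannotated loci (percent, axis from 0) released in G9a cKO (blue) and cDKO (red) in 4 groups by locus length in bases, with the number of loci above each bar. The share in cDKO runs from 0.437% in the shortest group to 5.12% in the longest.

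More than 100 kb from any RefSeq coding gene lay 32.9% of all 6403 loci, 46.2% of those released in cDKO and 50% of those released in G9a cKO. A RefSeq gene of any kind overlapped 27.4% of all, 33.5% of those released in cDKO and 38.2% of those released in G9a cKO, in most cases a noncoding model. Another locus overlapped 18.2% of the silent loci, always on the other strand, against 10.4% of those released in cDKO, 17.6% of those released in G9a cKO and 23.8% of those released in both. Release in cDKO was spread over all 19 autosomes, from 1.37% of the loci on chromosome 7 (4 of 293) to 5.04% on chromosome 3 (21 of 417).

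Loci released in cDKO were checked for neighbours in the order of the silent loci along each chromosome, at any distance. They formed 8 pairs and no longer run, and 1 of these is the overlapping pair on chromosome 16. The number of pairs that scattered release would give was not computed. In the first pair by position, TCONS_00055647 and TCONS_00059423 on chromosome 2, the reads in cDKO were 6 and 11 and 5 and 5. Annotated loci near released ones were counted by their own calls. For each silent locus only the nearest annotated locus that did not overlap it was taken, and kept if within 50 kb. For the loci released in cDKO these were 57 distinct loci, of which 7 (12.3%) were called higher and 2 lower in cDKO. For all 6403 loci they were 2377, of which 161 (6.77%) were called higher and 132 (5.55%) lower. Over all loci these shares were 4.32% and 2.02%, but all loci include unannotated ones, while the neighbours were all annotated. Differences between these shares were not tested.

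H3K9me2 was measured in windows of 10 kb, of which 9784 overlap a silent unannotated locus. Values are RPM without subtraction of input or IgG, so they show how reads are distributed and not the total amount of the mark. Over windows with a read, log2 values of the 2 controls correlated at 0.853. The 2 G9a cKO libraries correlated at 0.443 and the 2 cDKO libraries at 0.385, while cDKO replicate 2 and control replicate 2 correlated at 0.439. Relative to the mean of all windows, the windows of these loci held 1.12 and 1.11 for the controls, 1.31 and 1.30 for G9a cKO, and 1.18 and 1.13 for cDKO. Both mutants lay above both controls and G9a cKO above cDKO, in each case at the smallest p that 2 against 2 libraries allow (two-sided exact permutation test, p = 0.333). In windows that overlap no other locus cDKO overlapped the controls, at 1.17 and 1.12 against 1.12 and 1.12 (exact p = 1), and it did so without the windows called higher in G9a cKO, an alternative added after the data were seen, at 1.15 and 1.11 against 1.12 and 1.11 (exact p = 0.667).

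Other sets of loci also rose relative to all windows. Windows of unannotated autosomal loci without any read went from 1.07 and 1.05 in controls to 1.27 and 1.25 in G9a cKO, and those of unannotated loci above the threshold in a control from 1.10 and 1.09 to 1.31 and 1.29. Windows of loci with a mean RNA level of at least 10 RPM went from 0.978 and 0.963 in controls to 1.07 and 1.10 in G9a cKO, and stood at 1.16 and 1.14 in cDKO. Windows of annotated silent loci had 1.10 and 1.10 for the controls, 1.06 and 1.09 for G9a cKO, and 1.09 and 1.10 for cDKO. The median level per window over the 6392 loci with a value was 4.15 RPM for controls, 4.14 for G9a cKO and 4.13 for cDKO, while the median over all windows was 3.97 and 4.03 RPM for controls, 3.23 and 3.61 for G9a cKO, and 3.48 and 3.72 for cDKO. Centred on the median window, the median change in G9a cKO was 0.17 on the log2 scale over the windows of these loci and 0.01 over all windows. Without the windows called higher in G9a cKO the mean ratio in G9a cKO was 1.23. The difference between the sets of loci was not tested.

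**Figure D5:**
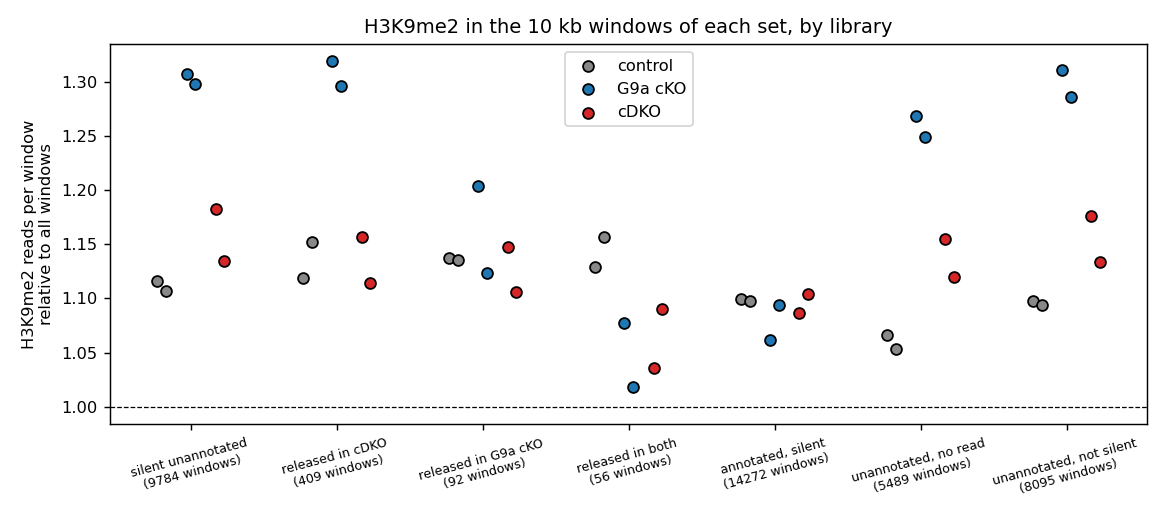
H3K9me2 reads per 10 kb window relative to the mean of all windows (dashed line at 1), per library, for windows of silent unannotated loci, of their released subsets and of other loci. The axis starts near 1, and the G9a cKO libraries (blue) reach 1.31 and 1.30 over all silent unannotated loci but 1.08 and 1.02 over the 56 windows of loci released in both mutants.

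H3K9me2 is given next by release, and the differences between released and other loci were not tested. The 409 windows of loci released in cDKO held 1.12 and 1.15 for the controls, 1.32 and 1.30 for G9a cKO, and 1.16 and 1.11 for cDKO. The cDKO libraries overlapped the controls. The 92 windows of loci released in G9a cKO held 1.14 and 1.14 for the controls, 1.20 and 1.12 for G9a cKO, and 1.15 and 1.11 for cDKO, again with overlap. Over the 56 windows of the 21 loci released in both mutants every mutant library (G9a cKO 1.08 and 1.02, cDKO 1.04 and 1.09) lay below both controls (1.13 and 1.16) (exact p = 0.333, the smallest possible). In the 31 windows mostly covered by such a locus G9a cKO stayed below (0.915 and 0.939) and cDKO (1.06 and 1.19) overlapped the controls (1.17 and 1.17). Annotated silent loci released in cDKO also had every mutant library, at 1.06 to 1.08, below both controls, at 1.12 and 1.14.

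Control H3K9me2 was set beside release. The tenth of all windows with the most H3K9me2 in controls included 10.9% of the windows of silent unannotated loci. It included 12.5% of those released in cDKO and 14.3% (8 of 56) of those released in both mutants. For annotated silent loci the share was 11.5%, and for those of them released in cDKO 13.9%. It was 9.33% for unannotated loci above the threshold in a control. For loci with a mean RNA level of at least 10 RPM it was 4.28%. In 4 equal groups from the lowest to the highest control H3K9me2, 1.94%, 2.57%, 2.88% and 3.32% of the loci were released in cDKO. The median lengths of these groups were 1859, 2572, 2594.5 and 2240.5 bases. Each of the 4 length groups was also divided into loci with lower and with higher control H3K9me2. Released in cDKO were 0.499% (lower) and 0.375% (higher) in the shortest group, and 2.13% and 1.76% in the second. In the third group the shares were 2.25% and 4.26%, and in the longest 4.76% and 5.38%. The direction thus differed between length groups. These shares are descriptions over loci, which are not replicates.

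By limma over 255057 windows, 343 of the 9779 tested windows of these loci were called in G9a cKO against controls, 338 higher and 5 lower, where 1.85% of all windows were called, 1.75% higher and 0.102% lower. Over the 338 windows the median level was 12.5 RPM for G9a cKO against 4.04 RPM for the controls. They overlapped 347 of the loci, of which 9 were released in cDKO and 1 in G9a cKO. The calls depended on the libraries in the fit, in which all groups share the estimate of the spread. By limma, 0 were left without G9a cKO replicate 2 (2857 at an unadjusted p under 0.05), where the lone library is assumed to vary like the other groups. Without cDKO replicate 1 or 2, which leaves the G9a cKO and control values as they are, 0 passed the adjustment (2626 and 2632 unadjusted, against 2372 with all libraries). Further, 113 and 137 were left without control replicate 1 or 2, and 666 arose without G9a cKO replicate 1, of which 331 were higher. Against controls, cDKO gave 0 called windows by limma (1042 windows of these loci at an unadjusted p under 0.05, and 404 with voom weights), and against G9a cKO also 0 (1648 unadjusted, and 4 with voom weights).

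The called windows with the greatest differences show how few reads stand behind them. Of the 5 with the largest increase, 4 had at most 1 read in every library, where the value of an empty window follows depth. The other, chr7:6590001-6600000, over TCONS_00092745, had 6 and 32 reads for the controls, 14 and 7 for G9a cKO, and 8 and 8 for cDKO. Scaled to depth these were 0.851 and 1.67 RPM for the controls, 7.54 and 6.31 for G9a cKO, and 4.64 and 4.25 for cDKO, with all 4 mutant libraries above both controls (G9a cKO minus control 2.53 on the log2 scale, limma adjusted p = 0.0457). In the window with the largest decrease, chr10:19130001-19140000 over TCONS_00008360, controls had 37 and 94 reads, G9a cKO 1 and 0, and cDKO 7 and 4 (-2.94, limma adjusted p = 0.0492).

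The loci with the most RNA did not share a single H3K9me2 pattern. TCONS_00018417 spans 92818 bases, and its windows held 4.17 and 4.81 RPM for the controls, 3.55 and 4.78 for G9a cKO, and 5.11 and 4.20 for cDKO. TCONS_00067389 held 4.68 and 4.3 RPM for the controls, 4.17 and 2.93 for G9a cKO, and 2.90 and 2.79 for cDKO. TCONS_00027422, beside Gm20599, held 3.26 and 4.34 RPM for the controls, 11.8 and 12.6 for G9a cKO, and 6.38 and 3.19 for cDKO. So among loci released in both mutants, the groups overlapped at the first, the mutants lay below the controls at the second, and at the third G9a cKO lay above them. TCONS_00059614, released in cDKO alone, also held more in G9a cKO, with 10.1 and 12.6 RPM against 4.19 and 4.46 in controls and 3.48 and 3.99 in cDKO. TCONS_00070523, released in G9a cKO alone, held 5.67 and 4.91 RPM for the controls, 3.23 and 1.80 for G9a cKO, and 1.74 and 1.59 for cDKO, where the mutants had 2 to 6 reads per library.

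Per locus, both cDKO libraries lay below both controls in H3K9me2 at 34.5% of the loci released in cDKO, 24.9% of those released in neither mutant and 25.2% of all silent unannotated loci, against a background of 27.5% over all windows. They lay above both controls at 20.5% and 26.4%, against 21.7%. In G9a cKO, 28.6% of the silent loci were below and 33.1% above both controls, against 34.1% and 21.9% of all windows. Mutant libraries had a median of 4 to 7 reads per window, and loci that span several windows have more, so these shares mix loci of unequal precision.

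Genes for H3K9 methylation and its silencing partners are given for context from a list chosen with earlier results known. Of 28 genes, 20 were matched in the table. By limma, 1 was called in G9a cKO, higher, where 1.05% of all loci were called higher and 0.737% lower. In cDKO 1 was called higher and 4 lower, where 4.32% of all loci were called higher and 2.02% lower. Ehmt1 was lower in cDKO (log2 fold change -2.06, limma adjusted p = 1.09e-21), as were Dnmt1 (-0.58, adjusted p = 3.57e-86) and Dnmt3a (-0.53, adjusted p = 1.71e-06), which encode DNA methyltransferases, and Atf7ip (-0.46, adjusted p = 0.00360), which encodes a partner of the H3K9 methyltransferase SETDB1. Kdm3a, which encodes an H3K9 demethylase, was higher (1.45, adjusted p = 0.000865). In G9a cKO only Cbx3, which encodes a heterochromatin protein 1, was called, at mean levels of 0.74 RPM in GKAO controls and 4.18 RPM in G9a cKO (adjusted p = 0.0225), with 4.84 RPM in GKAQ controls.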

How the data were processed

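The authors deposited RNA and H3K9me2 as log2 values, 1 column per library. The unit was inferred from the values: log2 of RPM, reads scaled to a total of 1000000, with 0.9 read for an empty feature, and whole reads were recovered from the steps. Per the submitters' processing notes, Trim Galore, Bowtie2, HISAT2 2.1.0, Bismark 0.19.0 and GRCm38 were used, with no role given. Counting, strand use and filters are not given in the sources used here, and 4 columns of per-sample values that match no sample were not used. For RNA, mutants were compared with controls of the same title prefix. The H3K9me2 titles carry no such prefix, and both mutants were compared with the same 2 controls there.

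Group means were fitted by limma 3.58.1 (R 4.3.3, package data.table, version 1.17.8) to the 11 RNA libraries over 38540 loci and to the 6 H3K9me2 libraries over the 255057 windows with a read, with two-sided p-values adjusted by Benjamini-Hochberg and a threshold of 0.05. The plan to test all windows was restricted because empty windows take a value set by depth. Python 3.11.15, pandas 2.3.3, scipy 1.17.1 and matplotlib 3.10.9 gave sums, exact tests and figures. The scripts were tested on simulated data. Where all libraries of a group had at most 3 reads, folds are bounds against 3 reads in the shallowest library. Windows were assigned to every locus they overlap.

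The loci named are the 10 highest in cDKO, the 10 highest in G9a cKO, the 10 with the highest lowest mutant value, up to 5 called loci per direction between mutants, the loci at the threshold, the extreme called windows and the longest run of neighbours, with their nearest genes. Of these, the text gives the values of a part. The nearest annotated gene is that of the nearest non-overlapping locus in the RNA data annotated to a gene on that gene's strand. A RefSeq gene without such a locus can lie closer. The loci, lists and tests were chosen with earlier results of these data known. Title numbers of GKAO and GKAQ libraries were checked as pairs. Alternatives covered the pseudocount, low-read filters, weights, centring, windows, thresholds and leaving out each library.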

Additional observations from a re-analysis of the deposited data

How the results depend on the processing

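The number of loci (6403) stayed within 1.5 times in all 16 alternatives. Released loci numbered 51 in cDKO and 8 in G9a cKO with controls below 0 on the log2 scale, 287 and 87 with controls below 1.5, and 24 and 4 with at least 10 reads in every mutant library. Leaving out 1 library each gave 173 to 363 in cDKO and 34 to 62 in G9a cKO, where a group with fewer libraries meets the criterion more easily.

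For cDKO against G9a cKO, 167 calls became 102 with log2(RPM + 0.5), 310 over loci with at least 1 read, 97 over loci with at least 10 reads, 37 with only the groups compared, and 64 to 268 without 1 library. For cDKO against its controls, 194 became 296 with voom weights, 97 with only the groups compared and 85 to 210 without 1 library. For G9a cKO against its controls, 20 became 6 with log2(RPM + 0.5), 48 with voom weights, 13 with only the groups compared and 7 to 19 without 1 library. A replicate block on the title number gave 81 (11 higher, 70 lower) in G9a cKO and 235 in cDKO. Deviations of same-numbered libraries correlated at 0.00035 to 0.11, in 1 of 5 pairs above 0.1, and whether the numbers mark a shared litter or day is not known. The cause of these moves was not tested.

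For H3K9me2 in G9a cKO, 343 called windows became 974 over all windows (875 higher), 170 over windows with at least 20 reads (all higher), 1805 with voom weights (1583 higher, 222 lower), 677 after centring (672 higher), 1500 in 100 kb windows (961 higher, 539 lower), and 0 to 666 without 1 library. In cDKO against control, 0 became 166 over all windows, 404 with voom weights, 296 in 100 kb windows and up to 6 without 1 library. Between mutants, 0 became 4 with voom weights, 13 in 100 kb windows and 0 to 28 without 1 library. The ratio of H3K9me2 reads in these windows to all windows was 1.04 in control, 1.22 in G9a cKO and 1.09 in cDKO relative to windows with a read, 1.12 and 1.29 (control, G9a cKO) where no other locus overlaps, 1.33 (G9a cKO) where the locus covers most of the window, and 1.23 (G9a cKO) without called windows, a setting chosen after seeing the data.

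TCONS_00059614 lost its call in 5 of 17 alternatives. The count-based tools planned as alternatives were not run, because the deposited values are log2. Most loci had few reads, and mutant H3K9me2 windows a median of 4 to 7, so differences at single loci were seldom detectable.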
